A study of Mus musculus with 8 samples.

Results

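The genes described here are 10 of the MHC class I and antigen-processing pathway, measured in 8 libraries of primary mouse microglia: H2-K1, H2-K2, H2-D1, B2m, Tap1, Tap2, Tapbp, Psmb8, Psmb9 and Nlrc5. They were found by name among the 54419 gene models of the deposited table. A model with exactly the gene's name came first, then the model with the highest mean over the libraries. All 10 have a model and all passed the filter of at least 1 FPKM in at least 2 libraries. FPKM counts fragments relative to the length of a model, in kilobases, and to the fragments mapped in the library. The list was chosen by pathway with the H2-K2 level after oxygen-glucose deprivation (OGD) already known, so the OGD libraries' FPKM of H2-K2 are the values that chose it. That difference is therefore given as a description, without a test, and H2-K2 is left out of every count that sets libraries with OGD against libraries without it.

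Microglia are the resident macrophages of the brain. They were grown from brains of C57BL/6 mice at postnatal day 2, and the growth text names C57BL/6J mice. OGD withholds oxygen and glucose from cultured cells as a model of ischaemia. All cells had been transfected for 24 h, either with a CRISPR activation plasmid for PARP14, called ACT-PARP14, or with the control plasmid ACT-Con, and OGD lasted 6 h. The titles give 4 groups of 2 libraries. Con has ACT-Con and no OGD in its title, PARP14 has ACT-PARP14 and no OGD, OGD_Con has ACT-Con and OGD, and OGD_PARP14 has ACT-PARP14 and OGD. As the treatment text gives OGD to all samples, the groups rest on the titles. The design text speaks of 2 independent experiments, but nothing ties a library to an experiment, a culture or an animal, so a p-value here reflects how these libraries vary, possibly for technical reasons.

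A class I molecule is a heavy chain, such as those encoded by H2-K1 and H2-D1, bound to beta-2-microglobulin and to a short peptide. The peptide is cut by the proteasome, whose interferon-inducible subunits include Psmb8 and Psmb9, is moved into the endoplasmic reticulum by the Tap1-Tap2 transporter, and is loaded with the help of tapasin, the product of Tapbp. Nlrc5 encodes a transactivator of class I genes, and microglia can raise class I expression when they are activated by interferons or injury.

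Before the results, 2 features of the libraries matter. OGD_PARP14 replicate 2 stood apart: its correlation with the other 7 libraries over the tested models was 0.880 to 0.903, against 0.946 to 0.986 among those 7. The level of Parp14, the plasmid's target, went against the labels. Its model, listed as Gm49730, held 12.2 and 11.5 FPKM where the label is PARP14, against 61.4 and 50.7 FPKM where it is Con. With OGD it held 55.8 and 54.6 FPKM where the label is OGD_PARP14 and 12.5 and 53.7 FPKM where it is OGD_Con. Parp14 was thus low in both PARP14 libraries and in OGD_Con replicate 1, and every plasmid direction below is that of the labels only. The OGD label of OGD_PARP14 replicate 2 is also taken as given, and every OGD_PARP14 mean includes that library unless stated. Its H2-K2 level lay closer to the libraries without OGD than to the other 3 with it. The levels of Ddit3, Errfi1, Sqstm1, Atf3 and Ccrl2 did so too. These genes were picked for their likeness to H2-K2 over the same libraries, so they are not separate evidence on the label. In that library Tap1 and Tap2 lay below all libraries without OGD, while Nlrc5 lay among them. The label was not tested. Of 10 microglial marker genes, 9 were detected and Siglech stayed below 0.1 FPKM in all libraries. Their summed level was 2212 to 2616 FPKM without OGD, 1947 to 2118 FPKM in the other 3 OGD libraries and 1246 FPKM in OGD_PARP14 replicate 2. Markers of other brain cells were low, at summed levels of 3.94 to 5.85 FPKM for astrocytes, 2.32 to 4.08 FPKM for neurons and 6.10 to 10.5 FPKM for the oligodendrocyte lineage, the last highest in OGD_PARP14 replicate 2. In bulk RNA, fewer cells of a type and less RNA per cell cannot be told apart. By the estimated depth of each library, a model of 1 kb with 1 FPKM rests on 13 to 17 fragments.

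Of the 10 genes, 8 lie on chromosome 17, where H2-K2 and H2-K1 are neighbours on the minus strand in the deposited coordinates, which follow GRCm38. H2-K2 spans chr17:33974659-33978827 and is annotated as a transcribed unprocessed pseudogene, and H2-K1 spans chr17:33996017-34000347. Because reads of near-identical genes can be split between them, the transcripts of GENCODE M21 were aligned. The coding part of H2-K1 has 1110 bases and the H2-K2 transcript 1052, and 930 of the 1052 aligned bases (88.4%) were identical. Exon 4, which encodes the alpha-3 domain in class I heavy chains, was 94.5% identical, and exon 3, which encodes the alpha-2 domain, 83.7%. Shorter exons went beyond both, from 78.6% in exon 6, with 14 aligned bases, to 96.8% in exon 8, with 31. The 60 bases of exon 3 that differ most are shown because they tell the genes apart; capitals mark the 20 bases that differ, and both read along the minus strand.

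H2-K1 exon 3, chr17:33999356-33999415: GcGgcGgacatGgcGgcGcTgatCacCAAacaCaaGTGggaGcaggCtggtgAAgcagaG
H2-K2 exon 3, chr17:33977856-33977915: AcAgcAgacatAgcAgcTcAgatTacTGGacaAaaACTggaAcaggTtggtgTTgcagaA

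A 60-base stretch of exon 4 has no difference, and is shown because fragments inside it fit both genes.

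H2-K1 exon 4, chr17:33997439-33997498, and H2-K2 exon 4, chr17:33975895-33975954: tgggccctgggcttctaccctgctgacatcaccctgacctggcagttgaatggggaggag

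No run of 100 bases of the H2-K2 transcript occurred in an H2-K1 transcript, and 1.5% of its 50-base runs did. In transcripts of any gene besides H2-K2 itself, 3.04% of its 100-base runs occurred, in 6 genes that include H2-D1, H2-T22 and H2-T23. Of its 50-base runs, 16.4% did. The read length and the treatment of reads with several matches are not given in the sources used here, and the values of H2-K1 and H2-K2 carry that uncertainty.

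H2-K2 was the gene of the list that differed most between libraries. It held 1.57 and 1.33 FPKM in Con and 1.49 and 1.78 FPKM in PARP14. After OGD it held 41.6 and 47.1 FPKM in OGD_Con, and 44.4 and 2.93 FPKM in OGD_PARP14. The 4 libraries without OGD lay together near the bottom, 3 of the 4 OGD libraries lay together far above them, and OGD_PARP14 replicate 2 was just above the libraries without OGD. The OGD_Con mean, 44.4 ± 3.92 FPKM, was 30.6 times the Con mean, 1.45 ± 0.17 FPKM (SD, n = 2 libraries each). In OGD_PARP14 the mean was 14.5 times that of PARP14, and 27.2 times without replicate 2. On the log2(FPKM + 1) scale, which understates the change of low genes, the differences were 4.21 and 2.35, and the latter was 4.11 without that library.

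H2-K1, a classical class I heavy chain, held levels that did not follow those of H2-K2. It held 448 and 410 FPKM in Con, 430 and 423 FPKM in PARP14, 469 and 375 FPKM in OGD_Con, and 495 and 371 FPKM in OGD_PARP14. Every group overlapped every other. The OGD_Con mean minus the Con mean was -6.82 FPKM for H2-K1 and 42.9 FPKM for H2-K2, and the 2 OGD_Con libraries differed in H2-K1 by 94.3 FPKM. A gain or loss of the size of the H2-K2 difference would thus lie within the spread of H2-K1. The library with little H2-K2, OGD_PARP14 replicate 2, and OGD_Con replicate 2, which had the most, held nearly equal H2-K1.

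As a share of the summed FPKM of both genes, H2-K2 made up 0.349% and 0.323% in Con and 0.345% and 0.418% in PARP14. It made up 8.14% and 11.2% in OGD_Con, and 8.23% and 0.784% in OGD_PARP14. Adding the second model of H2-K1, which lies on the opposite strand and held 0 to 8.66 FPKM, left the share at 8.06% to 10.9% in the 3 high libraries.

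**Figure D1:**
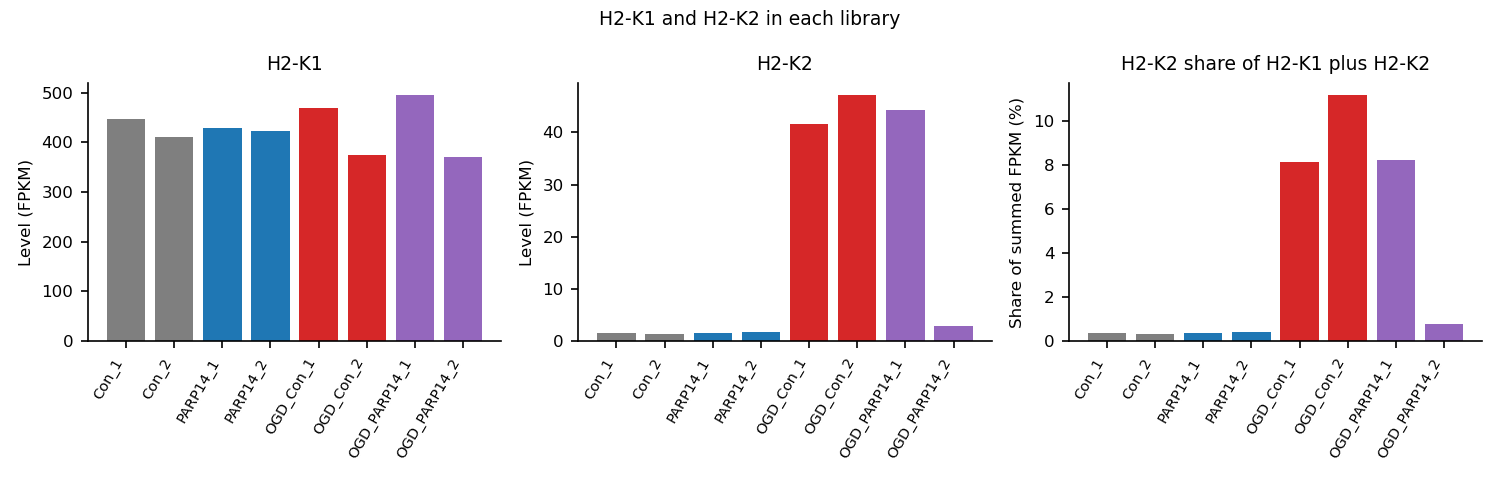
Level of H2-K1 (left) and H2-K2 (middle) in FPKM, and H2-K2 as a percentage of their summed FPKM (right), with 1 bar for each library, coloured by group. H2-K1 lay between 371 and 495 FPKM in all 8 libraries, while H2-K2 lay above 41 FPKM in 3 OGD libraries and at 2.93 FPKM or less in the other 5.

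The genes with levels most like those of H2-K2 over the 8 libraries, by Pearson's r of log2(FPKM + 1), were Ddit3, Errfi1, Sqstm1, Atf3 and Ccrl2, with r from 0.997 to 0.998. Ddit3 and Atf3 encode stress-induced transcription factors, Sqstm1 an autophagy receptor, Errfi1 a feedback inhibitor of EGF receptor signalling and Ccrl2 an atypical chemoattractant receptor. Ddit3 held 17.4 to 20.5 FPKM without OGD, 78.8 to 84.8 FPKM in the 3 high libraries and 23.8 FPKM in OGD_PARP14 replicate 2. Ccrl2 held 1.61 to 2.12 FPKM, 39.5 to 52.1 FPKM and 4.15 FPKM in the same libraries. The r is a description: the points share their libraries, and the level of 3 libraries against 5 largely sets it. An r of at least 0.9 was reached by 586 of the 11145 other tested models (5.26%), and an r of at least 0.99 by 35.

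**Figure D2:**
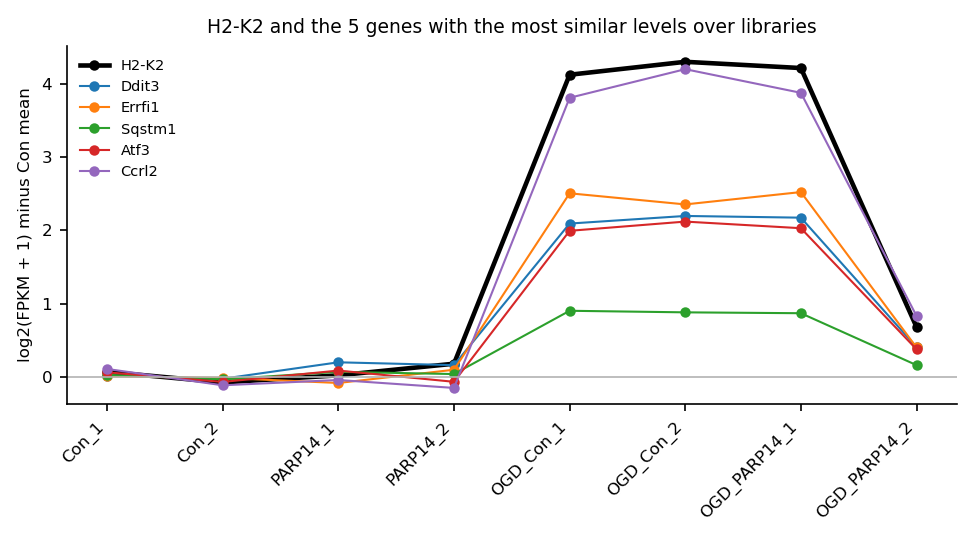
Level of H2-K2 (black) and of the 5 genes most like it in each library, as log2(FPKM + 1) minus the mean of the Con libraries. All 6 genes lay near 0 without OGD, above it in 3 OGD libraries, and only slightly above it in OGD_PARP14 replicate 2.

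H2-D1 and B2m, with H2-K1, were the most abundant of the list and the steadiest. B2m, at chr2:122147686-122153083 on the plus strand, held 4326 and 4411 FPKM in Con, 4628 and 4510 FPKM in PARP14, 5085 and 4352 FPKM in OGD_Con, and 5100 and 3953 FPKM in OGD_PARP14. H2-D1 held 947 and 1017 FPKM in Con, 1002 and 988 FPKM in PARP14, 1209 and 961 FPKM in OGD_Con, and 1105 and 1036 FPKM in OGD_PARP14. The highest library exceeded the lowest by 1.34 times for H2-K1, 1.29 times for B2m and 1.28 times for H2-D1, and the OGD libraries were more spread than the others for all 3. B2m and H2-K1 shared their 2 highest libraries, replicate 1 of OGD_PARP14 and of OGD_Con, and their lowest, OGD_PARP14 replicate 2. The ratio of B2m to H2-K1 plus H2-D1 was 2.81 in that library and 3.03 to 3.26 in the other 7. The H2-D1 model starts at chr17:35262730 and runs to 35563799, 296300 bases past the end of the annotated gene, so its value can include fragments from outside H2-D1.

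The RefSeq promoter table (GRCm38.p6) holds 7 of the 10 genes; H2-K2, Tap2 and Nlrc5 are not among them. The 250 bases before the start site are shown for these 3 abundant genes, because their levels were steady and letters known from class I promoters occur in them. Capitals mark matches, on either strand, to an NF-kB-like motif (GGGA, any 4 bases, CC) or to an interferon-stimulated response element (GAAA, any 2 bases, GAAA).

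H2-K1, chr17:34000348-34000597, minus strand: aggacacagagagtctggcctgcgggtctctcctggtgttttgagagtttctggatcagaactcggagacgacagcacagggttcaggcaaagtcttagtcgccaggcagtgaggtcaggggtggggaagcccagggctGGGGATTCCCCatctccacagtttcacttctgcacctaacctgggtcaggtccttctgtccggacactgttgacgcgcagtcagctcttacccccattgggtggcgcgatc
H2-D1, chr17:35262844-35263093, plus strand: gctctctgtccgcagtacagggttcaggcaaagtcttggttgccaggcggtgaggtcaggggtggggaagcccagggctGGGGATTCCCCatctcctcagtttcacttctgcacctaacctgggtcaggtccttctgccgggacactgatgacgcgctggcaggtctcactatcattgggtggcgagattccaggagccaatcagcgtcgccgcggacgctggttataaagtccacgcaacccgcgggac
B2m, chr2:122147437-122147686, plus strand: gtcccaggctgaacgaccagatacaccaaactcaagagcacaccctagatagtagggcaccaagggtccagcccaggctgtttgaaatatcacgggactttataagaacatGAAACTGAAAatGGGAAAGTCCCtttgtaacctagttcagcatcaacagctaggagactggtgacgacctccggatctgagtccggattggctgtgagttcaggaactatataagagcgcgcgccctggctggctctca

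The NF-kB-like letters occurred in these 3 of the 7 windows and in 17.6% of 32851 windows of the table. In H2-K1 and H2-D1 the matches on the 2 strands overlap in the same 11 letters. The searched form of the interferon element, GAAA, any 2 bases, GAAA, occurred in B2m alone and in 2.98% of all windows. Looser forms of that element were not searched, so its absence from the H2-K1 and H2-D1 windows cannot be read from this. TGACGC, a core of the X2 box that class I promoters carry, occurred in H2-K1 and H2-D1 and in 6.12% of all windows, and CCAAT, the Y box, in 6 of 7 and in 33.9%. TTCNNNGAA, a gamma-activated site, occurred in Psmb8 and in 7.02% of all windows, and ACGTG, the core of the hypoxia response element, in 0 of 7 and in 16.6%. Both strands were searched, and a match is a description of the letters, not a site.

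For the heavy chains and B2m, the differences between OGD_Con and Con lay within the spread of the libraries and passed no test. The log2 fold changes were -0.03 for H2-K1 (SE 0.18, 95% interval -0.48 to 0.41), 0.14 for H2-D1 (SE 0.14, interval -0.21 to 0.48) and 0.11 for B2m (SE 0.16, interval -0.27 to 0.49), with limma adjusted p-values of 0.951, 0.655 and 0.770. In OGD_PARP14 against PARP14 they were 0.01, 0.11 and -0.03, of which the sign of H2-D1 turned under quantile normalization (-0.02) and that of B2m under median centring (0.04).

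The group means of Nlrc5, Tap1 and Tap2 were lower with OGD than without it for both plasmids, and none passed the test with 8 libraries. Nlrc5, on chromosome 8 from 94434356 to 94527272, held 11.7 and 9.33 FPKM in Con, 11.4 and 10.2 FPKM in PARP14, 6.38 and 6.11 FPKM in OGD_Con, and 6.20 and 9.69 FPKM in OGD_PARP14. The 3 OGD libraries besides OGD_PARP14 replicate 2 lay together below all libraries without OGD, and that library lay among the latter. Among these 3 against the 4 without OGD, a grouping chosen after the values were seen, Nlrc5, Tap1, Tap2 and Tapbp lay lower, beside 26.7% of all tested models, and 0 of the 9 genes other than H2-K2 lay higher, beside 22.1%. The log2 fold change was -0.66 in OGD_Con against Con (SE 0.21, limma adjusted p = 0.188), and -0.43 in OGD_PARP14 against PARP14 (SE 0.21, limma adjusted p = 0.405). Neither passed with all 8 libraries. Without OGD_PARP14 replicate 2 the log2 fold changes of Nlrc5 were -0.66 (SE 0.12) and -0.71 (SE 0.15). The first rests on the same OGD_Con and Con libraries in both fits, so only the spread shared by the groups changed. The second rests on OGD_PARP14 replicate 1 alone.

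Tap1, which pairs with Tap2 to form the transporter, lies at chr17:34187553-34197225 on the plus strand. In Con its mean was 22.3 ± 0.46 FPKM (SD, n = 2), with 22.6 FPKM in the higher library. It held 28.6 and 27.4 FPKM in PARP14, 20.5 and 17.5 FPKM in OGD_Con, and 17.8 and 20.5 FPKM in OGD_PARP14. Tap2, at chr17:34203527-34216321, held 22.5 and 20.4 FPKM, 23.8 and 22.2 FPKM, 17.9 and 14.5 FPKM, and 18.0 and 17.3 FPKM in the same order. All 4 OGD libraries lay below all 4 others for both genes, as they did for 15.8% of all tested models, while 0 of the 9 lay higher, beside 8.06%, also a grouping chosen after the values were seen. Tap1 had a log2 fold change of -0.22 in OGD_Con against Con (SE 0.13, limma adjusted p = 0.393) and of -0.53 in OGD_PARP14 against PARP14 (SE 0.13, limma adjusted p = 0.170). Tap2 had values of -0.39 (SE 0.13, limma adjusted p = 0.204) and -0.36 (SE 0.13, limma adjusted p = 0.311). Without OGD_PARP14 replicate 2, Tap1 passed in OGD_PARP14 against PARP14 (-0.63, SE 0.12, limma adjusted p = 0.0362), where OGD_PARP14 is then 1 library that is assumed to vary like the other groups.

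Tapbp shares its model with the neighbouring gene Zbtb22, so the level is that of both. The model ends at 33926197 on chromosome 17, while the annotated transcripts assigned to it reach 33929292. Of these 11 transcripts, 7 lie inside the model, so its value can miss fragments of the 2 genes. It held 30.4 and 28.0 FPKM in Con, 35.5 and 41.0 FPKM in PARP14, 24.9 and 24.3 FPKM in OGD_Con, and 23.02 and 42.0 FPKM in OGD_PARP14. Replicate 2 of OGD_PARP14 was the highest of all libraries and replicate 1 the lowest. With all 8 libraries the log2 fold change in OGD_PARP14 against PARP14 was -0.28 (SE 0.27, limma adjusted p = 0.626), and without that library -0.71 (SE 0.12, limma adjusted p = 0.0296).

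The immunoproteasome subunits Psmb8 and Psmb9 passed no test with 8 libraries. Psmb8, at chr17:34197721-34201454 on the plus strand, held 59.6 and 51.6 FPKM in Con, 65.0 and 60.3 FPKM in PARP14, 54.8 and 49.4 FPKM in OGD_Con, and 55.5 and 35.6 FPKM in OGD_PARP14. Psmb9, at chr17:34181656-34187764 on the minus strand, held 16.5 and 14.5 FPKM, 16.9 and 16.6 FPKM, 17.3 and 18.5 FPKM, and 16.8 and 9.62 FPKM in the same order. For both genes OGD_PARP14 replicate 2 was the lowest library. The start sites of Psmb9 and Tap1 lie 226 bases apart on opposite strands, and their models overlap, so reads at the overlap could go to either unless the authors counted by strand, which is not given in the sources used here. Psmb9 had a log2 fold change of 0.19 in OGD_Con against Con (SE 0.24, limma adjusted p = 0.726), where Tap1 had a negative one.

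**Figure D3:**
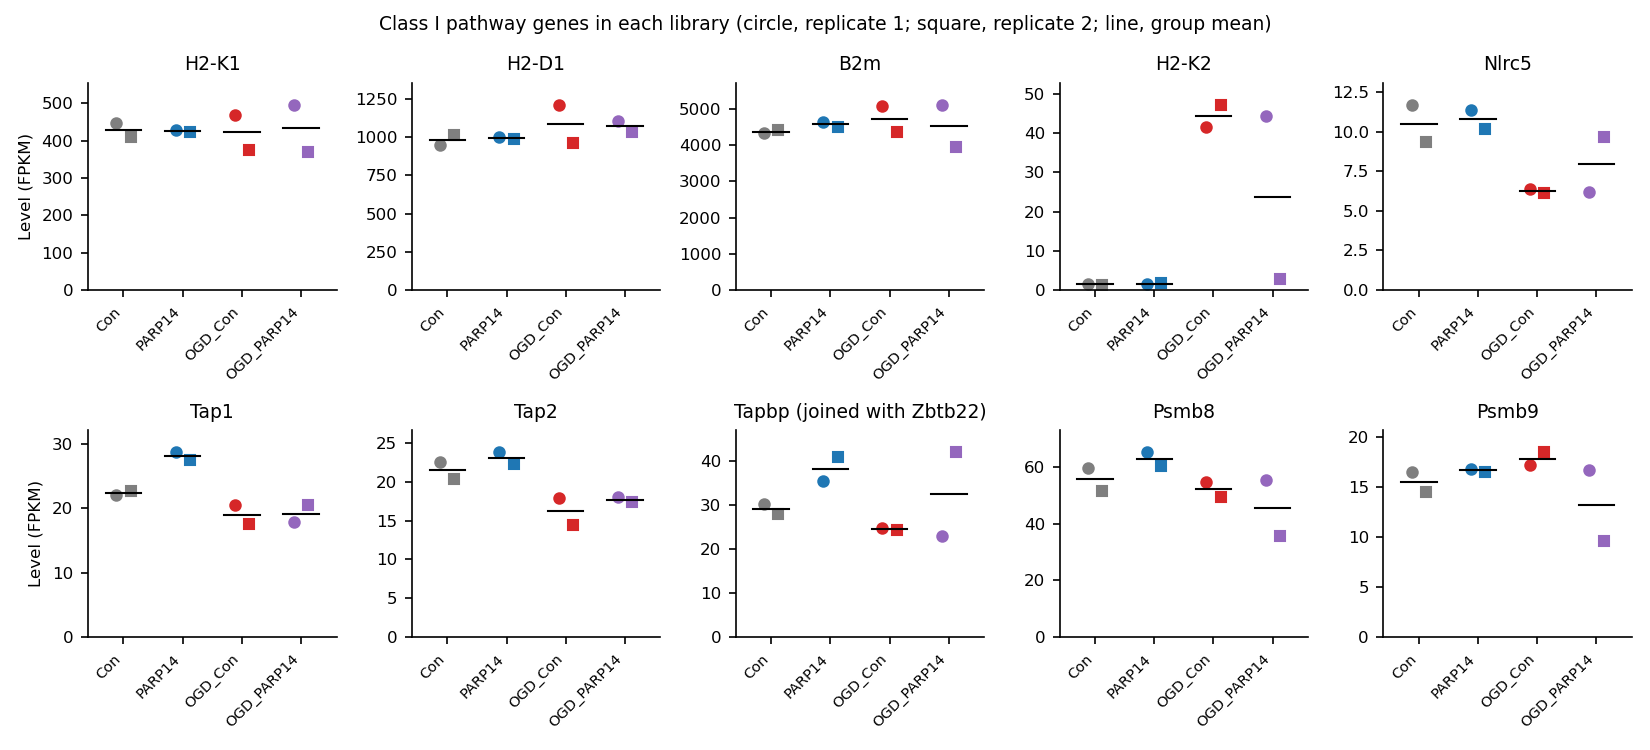
Level in FPKM of the 10 genes in each library, by group, with circles for replicate 1, squares for replicate 2 and lines for group means. For H2-K1, H2-D1 and B2m the libraries with and without OGD overlapped, Tap1 and Tap2 lay lower in all 4 OGD libraries, and H2-K2 lay high in 3 of them.

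Over the list, 0 of 9 genes rose and 0 of 9 fell in OGD_Con against Con at a limma adjusted p under 0.05, beside 0.161% of all tested models higher and 0.108% lower. The unadjusted p was under 0.05 for 2 of the 9. The median log2 fold change of the 9 was -0.09, and that of all tested models -0.02. In OGD_PARP14 against PARP14 the counts were again 0 and 0 by limma, beside 0.126% and 0.0897%, with 2 genes at an unadjusted p under 0.05. The median was -0.36, and that of all tested models -0.07. Without OGD_PARP14 replicate 2, 1 of 9 fell in OGD_Con against Con (Nlrc5), beside 12.4% of all tested models, and 3 of 9 fell in OGD_PARP14 against PARP14 (Nlrc5, Tapbp and Tap1), beside 5.17%. None of the 9 rose in either, beside 10.7% and 5.54%. With all libraries, 4 genes lay lower in OGD_Con than in Con without overlap (Tap1, Tap2, Tapbp and Nlrc5), beside 35.8% of all tested models, and Psmb9 lay higher, beside 30.7%. In OGD_PARP14 against PARP14, 4 lay lower without overlap (Tap1, Tap2, Psmb8 and Nlrc5), beside 26.5%, and H2-D1 lay higher, beside 14.4%.

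**Figure D4:**
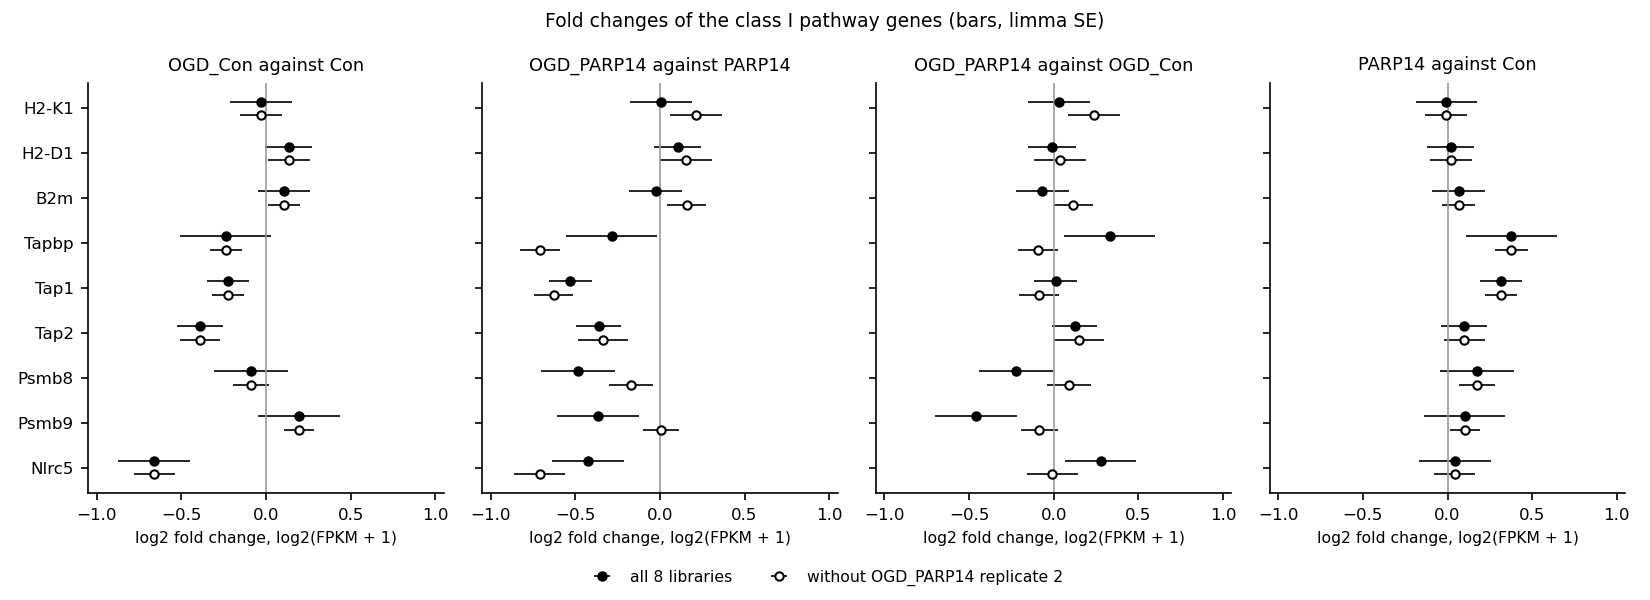
Log2 fold change on the log2(FPKM + 1) scale of the 9 genes other than H2-K2 in 4 comparisons, with bars for the limma SE, filled points for all 8 libraries and open points without OGD_PARP14 replicate 2. Nlrc5, Tap1, Tap2, Tapbp and Psmb8 lay below 0 in both comparisons of OGD with no OGD. The values of Tapbp, Psmb8 and Psmb9 in OGD_PARP14 against PARP14 moved most without that library.

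For the plasmid labels, the question was whether class I genes differ between ACT-PARP14 and ACT-Con. Without OGD, 0 of 10 genes rose and 0 of 10 fell by limma, beside 0.0% and 0.00897% of all tested models, and 1 had an unadjusted p under 0.05. That gene was Tap1, with both libraries labelled PARP14 above both labelled Con (log2 fold change 0.32, SE 0.13, limma adjusted p = 1). Tapbp had a value of 0.38 (SE 0.27), Psmb8 of 0.17 (SE 0.22) and H2-K1 of -0.01 (95% interval -0.45 to 0.44). In 5 genes, B2m, Tap1, Tapbp, Psmb8 and Psmb9, both libraries labelled PARP14 lay above both labelled Con, beside 12.4% of all tested models, and 0 genes lay lower without overlap, beside 15.0%. The fit with 7 libraries also had 0, beside 0.0269% in each direction. The sign of H2-D1 (0.02) turned under quantile normalization.

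Under OGD, 0 of 10 rose and 0 of 10 fell in OGD_PARP14 against OGD_Con by limma, beside 0.0% and 0.0% of all tested models, and 0 had an unadjusted p under 0.05. The count is 0 of 9 without H2-K2, whose OGD levels chose the list and whose difference of -1.76 is a description. That difference was 0.00 without replicate 2 of OGD_PARP14 and -3.53 without its replicate 1. Psmb9 had -0.46 (SE 0.24), which was -0.09 without that library, and Tapbp 0.33 (SE 0.27), which was -0.09. H2-K1 had 0.03 (95% interval -0.42 to 0.48). Without overlap, Psmb9 lay lower, beside 19.2% of all tested models, and 0 lay higher, beside 13.4%. Without OGD_PARP14 replicate 2, 0 of 10 passed, beside 0.0628% higher and 0.0359% lower. When replicate 1 of OGD_PARP14 was left out instead, replicate 2 alone stood for the group. The log2 fold changes were then 0.56 for Nlrc5, 0.75 for Tapbp, -0.53 for Psmb8 and -0.83 for Psmb9. Counts of members called in this comparison with a library left out, given further below, include H2-K2. For the difference between the 2 OGD effects, the interaction, 0 of 9 passed in either direction by limma, beside 0.00897% higher and 0.0% lower, and no unadjusted p was below 0.05. In the fit with 7 libraries 0 of 9 passed, beside 0.0359% higher and 0.0449% lower of all tested models, while 2 genes had an unadjusted p below 0.05.

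OGD_PARP14 replicate 2 lay below the other 7 libraries in H2-K1, B2m, Psmb8 and Psmb9, as in 38.5% of all tested models, and above them in Tapbp, as in 20.7%. Its microglial markers were also the lowest, and their part in these levels was not tested.

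Other genes of the pathway were read from 6 lists. For 26 other class I heavy chain and class I-like genes there were 20 models, of which 14 were tested. H2-T23, a non-classical class I gene, held 95.9 to 145 FPKM, H2-Q4 67.6 to 119 FPKM and H2-M3, which presents formylated peptides, 42.1 to 50.9 FPKM. In OGD_Con against Con 0 of 14 passed with 8 libraries, and without OGD_PARP14 replicate 2 Mr1, which presents vitamin B metabolites, was the 1 of 14 that rose, beside 10.7% of all tested models (0.57, SE 0.12, limma adjusted p = 0.0323). The median of the list was 0.04, the same in both fits because no OGD_PARP14 library enters these fold changes.

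Of 16 other proteasome genes, 14 had a negative log2 fold change in OGD_Con against Con (median -0.20) and 15 in OGD_PARP14 against PARP14 (median -0.29), and 0 passed with 8 libraries. With the 7 libraries, 5 of the 16 fell, beside 12.4% of all tested models, and 0 rose, beside 10.7%, in OGD_Con against Con. They were Psma5, Psmb10, Psmc1 and the models of Psmb5 and Psmd1, which are joined with other genes. Psmb10, the remaining immunoproteasome subunit, held 54.7 and 55.5 FPKM in Con, 56.7 and 59.3 FPKM in PARP14, 40.3 and 36.8 FPKM in OGD_Con, and 42.8 and 42.5 FPKM in OGD_PARP14. All 4 OGD libraries lay below all 4 others. Its log2 fold change in OGD_Con against Con was -0.51 (SE 0.10, limma adjusted p = 0.0995) with 8 libraries, and the limma adjusted p was 0.0138 with 7. Psma5 and the joined models of Psmb5 and Psmd1 fell in OGD_PARP14 against PARP14 as well with 7 libraries, beside 5.17% of all tested models.

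Of 16 peptide loading and trimming genes, 0 passed with 8 libraries, whereas 3 fell, beside 12.4% of all tested models, and 1 rose, beside 10.7%, in OGD_Con against Con with 7. Uggt1, a glycoprotein folding sensor, fell (-0.76, SE 0.12), as did the chaperone Hspa5 (-0.52, SE 0.10) and the glucosidase subunit Ganab. The lectin chaperone Canx rose (0.33, SE 0.08). With the other plasmid, Hspa5 overlapped, at 108.9 and 140.0 FPKM in OGD_PARP14 and 117.1 and 133.5 FPKM in PARP14. Ganab lay lower in OGD_PARP14, at 27.1 and 30.5 FPKM, than in PARP14, at 33.1 and 34.9 FPKM. OGD_PARP14 replicate 2 was the highest of all libraries for Hspa5 and Uggt1 and the lowest for Canx.

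Of 21 regulators of class I transcription, 0 passed with 8 libraries, with a median of -0.22 in OGD_Con against Con. The median of all tested models was -0.02. Of the 21, 14 had a negative log2 fold change in that comparison and 7 a positive one. Nfkb1, Rela, Rfx5, Stat2 and the joined model of Usf1 were among the 14, and Nfkb2 and Nfyb among the 7. These genes are named because they stood out in the fit without OGD_PARP14 replicate 2, so they do not represent the list. Stat2, a transcription factor of type I interferon signalling, held 50.9 and 41.8 FPKM in Con, 66.6 and 63.2 FPKM in PARP14, 17.3 and 23.5 FPKM in OGD_Con, and 17.5 and 39.6 FPKM in OGD_PARP14. The OGD libraries lay below all others, OGD_PARP14 replicate 2 the least so. Its log2 fold change in OGD_Con against Con was -1.16 (SE 0.37, limma adjusted p = 0.188) with 8 libraries. Rela, the p65 subunit of NF-kB, had -0.66 (SE 0.16, limma adjusted p = 0.127). In OGD_PARP14 against PARP14, 12 of the 21 had a negative log2 fold change and 9 a positive one, with and without OGD_PARP14 replicate 2. Without it, the value was -1.83 for Stat2, -1.18 for Creb1 and -0.56 for Rela. Nfyb held 2.755 and 2.855 FPKM in PARP14, and 4.558 and 2.904 FPKM in OGD_PARP14. In both plasmid comparisons and in the interaction, 0 genes of any of the 6 lists passed with 8 or 7 libraries.

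Of 11 interferon and receptor genes, 8 were tested. Ifng was listed at 0 in all libraries, Ifnb1 reached at most 0.0997 FPKM, and Ifngr1, a chain of the interferon gamma receptor, held 25.5 to 39.3 FPKM. Socs3, a feedback inhibitor of cytokine signalling, held 6.88 and 7.01 FPKM in Con and 7.58 and 7.18 FPKM in PARP14. It held 2.75 and 2.89 FPKM in OGD_Con, and 2.84 and 0.868 FPKM in OGD_PARP14. Its log2 fold change was -1.06 in OGD_Con against Con (SE 0.32, limma adjusted p = 0.171). In OGD_PARP14 against PARP14 it was -1.645 (SE 0.32, limma adjusted p = 0.128). Neither passed with all libraries.

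In the class II list, read for comparison, the chain genes and their transactivator were low in all libraries: H2-Aa reached at most 0.0705 FPKM, H2-Eb1 0.167 FPKM, H2-Ab1 0.651 FPKM and Ciita, the class II counterpart of Nlrc5, 0.00814 FPKM. Of 12 genes, 5 were tested and 0 passed in any comparison with 8 or 7 libraries. Cd74, the invariant chain, held 1.16 to 3.52 FPKM and H2-DMb1, a peptide exchange subunit, 7.48 to 9.62 FPKM. The lysosomal genes of the list were high: Ctss, a cathepsin, held 1780 to 4165 FPKM and Ifi30, a thiol reductase, 48.1 to 187 FPKM, both highest in OGD_PARP14 replicate 2. Of 10 markers of peripheral leukocytes, 7 were below 0.1 FPKM in all libraries, Ccr2 and Cd3e among them, and their summed level was 35.5 to 41.0 FPKM without OGD and 36.4 to 45.7 FPKM with it.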

How the data were processed

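Polyadenylated RNA of 8 libraries was sequenced as paired ends after a dUTP-based stranded preparation with unique molecular identifiers, per the labels' protocols. The authors used HISAT, StringTie and edgeR and the build mm9, per the submitters' processing notes. The deposited values are FPKM. Spans of 7 of the 10 genes equal those of GENCODE M21 (GRCm38), so coordinates are given as deposited.

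Values were taken as log2(FPKM + 1). Of 54419 models, the 11146 that were named and reached 1 FPKM in 2 or more libraries were tested with limma 3.58.1 in R 4.3.3. A single fit held the means of the 4 groups, leaving 4 residual degrees of freedom, with Benjamini-Hochberg adjustment over all models tested. Leaving out an OGD_PARP14 library keeps every fold change between the other groups. Only the spread shared by the groups, and with it the p-value, then changes. The code was tested on simulated data. Depth, 13.37 M to 17.04 M fragments a library, was estimated from the spacing of low values, since no fragment counts were used here. Python 3.11.15, pandas 2.3.3 and Biopython 1.88 were used for the rest.

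The members, gene lists, tests and alternatives were chosen with earlier results of these data known. All members are named. Other genes come from the lists, as those called in either of the fits with 8 and 7 libraries or as levels, or are the 5 with the highest r to a member. Alternatives were pseudocounts of 0.1 and 5, no filter, a filter at 5 FPKM, quantile normalization, median centring, an intensity trend, only the libraries compared, a replicate block, leaving out each library, and summing all models of a gene. Some genes of the lists are not reported here.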

Additional observations from a re-analysis of the deposited data

Results flagged for a closer look

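For Psmb9, an immunoproteasome subunit, the plasmid labels went opposite ways with and without OGD. Without OGD, both libraries labelled PARP14 (16.9 and 16.6 FPKM) lay above both labelled Con (16.5 and 14.5 FPKM). With OGD, both labelled OGD_PARP14 (16.8 and 9.62 FPKM) lay below both labelled OGD_Con (17.3 and 18.5 FPKM). The difference between the 2 effects, tested as the interaction, was -0.56 in log2 units (SE 0.34, limma adjusted p = 0.824) and did not pass. Without OGD_PARP14 replicate 2 it was -0.19, and without replicate 1 of that group -0.93 (limma adjusted p = 0.00933), so OGD_PARP14 replicate 2 decides it.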

How the results depend on the processing

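With 2 libraries a group, the spread of 1 library sets most calls. Of 490 log2 fold changes recomputed with another pseudocount, filter, scaling, variance model, sample set, block or sum of models, 482 kept their direction and side of the threshold. The filter, variance model, sample set and block cannot move a fold change and act on its p-value only. Summed models change only genes with more than 1 model. For these settings a kept direction was fixed in advance. Without a filter, 29369 of the 54373 named models fitted were listed at 0 in all libraries. With only the libraries compared, 1 member was lower in OGD_Con against Con (Nlrc5, -0.66, limma adjusted p = 0.04001). Signs turned for H2-D1 under quantile normalization in OGD_PARP14 against PARP14 (-0.0181) and in PARP14 against Con (-0.0646), and under median centring in OGD_PARP14 against OGD_Con (0.0369) and the interaction (0.0107). They also turned for B2m under median centring in OGD_PARP14 against PARP14 (0.0417), for Tapbp under quantile normalization in the interaction (0.0734), and for H2-K1 with summed models in PARP14 against Con (0.0026). With a pseudocount of 5 the H2-K2 difference in OGD_Con against Con was 2.93. Of 400 values with 1 library left out, 42 turned, in 26 results, and the causes were not tested. Members called lower then ranged from 0 to 1 in OGD_Con against Con, 0 to 3 in OGD_PARP14 against PARP14, 0 to 3 in OGD_PARP14 against OGD_Con and 0 to 2 in the interaction, and members called higher from 0 to 2 in OGD_PARP14 against OGD_Con. Log2 fold changes that turned in OGD_Con against Con ranged from -0.19 to 0.13 (H2-K1), -0.0306 to 0.30 (H2-D1), -0.0053 to 0.22 (B2m) and -0.19 to 0.0120 (Psmb8). In OGD_PARP14 against PARP14 they ranged from -0.20 to 0.21 (H2-K1), -0.21 to 0.16 (B2m), -0.71 to 0.14 (Tapbp) and -0.74 to 0.0065 (Psmb9). In OGD_PARP14 against OGD_Con they ranged from -0.18 to 0.24 (H2-K1), -3.53 to 0.0031 (H2-K2), -0.18 to 0.16 (H2-D1), -0.25 to 0.12 (B2m), -0.10 to 0.12 (Tap1), -0.0186 to 0.27 (Tap2), -0.0908 to 0.75 (Tapbp), -0.53 to 0.0905 (Psmb8) and -0.0075 to 0.56 (Nlrc5). In PARP14 against Con they ranged from -0.0712 to 0.0567 (H2-K1), -0.0323 to 0.0714 (H2-D1) and -0.10 to 0.19 (Nlrc5). In the interaction they ranged from -0.17 to 0.25 (H2-K1), -0.20 to 0.14 (H2-D1), -0.32 to 0.0518 (B2m), -0.12 to 0.17 (Tap2), -0.47 to 0.37 (Tapbp) and -0.0499 to 0.52 (Nlrc5). Without OGD_PARP14 replicate 1, replicate 2, the library that stood apart, was the whole group. The log2 fold changes in OGD_PARP14 against PARP14 were then -0.74 for Psmb9, -0.43 for Tap1 and -0.80 for Psmb8. The deviations of same-numbered libraries correlated at 0.014 to 0.124 between groups, which cannot settle whether a replicate number marks an experiment. H2-K1, Tap2 and Psmb8 were higher in replicate 1 than in replicate 2 of every group, and the other members kept no such order. A shared experiment behind the replicate numbers was not tested further. With the replicate block 0 members were called in any comparison. No fragment counts were used here, so values near 1 FPKM, such as H2-K2 without OGD, rest on few fragments.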

Other observations

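Models on the strand opposite to the class I genes varied between single libraries. The model opposite to H2-K1, at chr17:33996072-33999851, held 5.96 FPKM in PARP14 replicate 1, 5.13 and 8.66 FPKM in OGD_Con and 4.82 FPKM in OGD_PARP14 replicate 1, and 0.104 FPKM or less in the other 4 libraries. A 344-base model opposite to H2-D1, at chr17:35266870-35267213, held 19.9 FPKM in OGD_Con replicate 1 and 0.394 FPKM or less elsewhere.

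The genes with levels most like those of H2-K1 over the 8 libraries were Mpc2, Glrx, Ramac, Ndufa12 and Pdap1, with Pearson's r from 0.922 to 0.947. Glrx, a glutaredoxin, held 9.04 to 30.2 FPKM. For Tap1 they were Pigw, Cstf1, Zfp959, Gprasp1 and Fbxo4, with r from 0.942 to 0.964. These r values are descriptions over libraries that the genes share.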
